A study of Mus musculus with 6 samples.

Results

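Haemoglobin genes were followed through 6 libraries of mouse RNA read as 3' end tags. They comprised the embryonic genes Hba-x, Hbb-y and Hbb-bh1 and the adult-type genes Hba-a1, Hba-a2, Hbb-bt and Hbb-bs. These 7 genes were taken by symbol from the 24421 gene symbols in each table. All 7 were present, and all 7 passed the filter on low counts that left 13848 genes for testing. The samples were 3 labelled homozygous for a knockout of Lphn2 (KO) and 3 labelled wild type (WT). All 6 were of the C57BL/6N strain and labelled whole embryo at embryonic day 9.5. Lphn2, now named Adgrl2, encodes latrophilin-2, an adhesion receptor that the series describes as a surface marker of cardiac progenitors. The labels do not say how the allele was made, whether a sample held 1 embryo or several, or whether maternal tissue was dissected away.

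Haemoglobin is built from alpha-like and beta-like chains, whose genes lie in separate clusters arranged roughly in the order of their use in development. The earliest red cells of the mouse, the primitive erythroblasts, arise in blood islands of the yolk sac and enter the circulation as the heart starts to beat. They make the zeta chain (Hba-x) and the beta-like chains epsilon-y (Hbb-y) and beta-h1 (Hbb-bh1), together with adult alpha chains. As these cells mature, the balance moves from Hbb-bh1 towards Hbb-y and from Hba-x towards adult alpha. Definitive red cells, from the fetal liver and later the bone marrow, use Hba-a1 and Hba-a2 with Hbb-bt and Hbb-bs. Adult globin transcripts are therefore also carried by the blood of the mother, and in these libraries an embryonic and a maternal source of them cannot be told apart.

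On the mm10 assembly, Hba-x (chromosome 11, 32276400 to 32278116), Hba-a1 (32283511 to 32284465) and Hba-a2 (32296489 to 32297298) lie on the plus strand in GENCODE M21. Hbb-bt (chromosome 7, 103812524 to 103813996), Hbb-bs (103826534 to 103828096), Hbb-bh1 (103841637 to 103843164) and Hbb-y (103851749 to 103853216) lie on the minus strand. The bases just before the RefSeq starts of these genes are shown because the members of each class moved together across libraries, as described further on. Each run is the 150 bases upstream of the RefSeq start on GRCm38.p6, with matches to CACCC and to CCAAT, on either strand, in capitals. RefSeq starts differ from the GENCODE bounds given above. The windows of Hba-x, Hba-a1 and Hbb-bs lie inside those bounds, and those of Hbb-bt and Hbb-y overlap them in part. CACCC is the core of the site bound by Klf1, the erythroid Krüppel-like factor, and CCAAT is a common promoter box. RefSeq windows were matched for 6 of the 7 members; that of Hba-a2 is not shown, since its counts are those of Hba-a1, and Hbb-bh1 was not matched.
Hba-x (chr11:32276450-32276599, plus strand): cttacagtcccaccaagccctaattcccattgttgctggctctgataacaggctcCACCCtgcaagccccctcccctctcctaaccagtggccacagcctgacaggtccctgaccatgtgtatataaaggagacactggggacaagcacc
Hbb-y (chr7:103853208-103853357, minus strand): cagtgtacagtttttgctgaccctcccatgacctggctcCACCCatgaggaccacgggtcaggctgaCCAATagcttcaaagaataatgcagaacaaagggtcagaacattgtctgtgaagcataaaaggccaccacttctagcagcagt
Hba-a1 (chr11:32283522-32283671, plus strand): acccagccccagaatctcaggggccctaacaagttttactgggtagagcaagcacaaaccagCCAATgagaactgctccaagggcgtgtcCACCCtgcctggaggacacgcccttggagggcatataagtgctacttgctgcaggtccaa
Hbb-bt (chr7:103813924-103814073, minus strand): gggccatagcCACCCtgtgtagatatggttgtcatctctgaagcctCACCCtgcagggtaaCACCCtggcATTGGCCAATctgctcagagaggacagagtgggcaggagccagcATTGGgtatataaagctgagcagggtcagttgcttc
Hbb-bs (chr7:103827929-103828078, minus strand): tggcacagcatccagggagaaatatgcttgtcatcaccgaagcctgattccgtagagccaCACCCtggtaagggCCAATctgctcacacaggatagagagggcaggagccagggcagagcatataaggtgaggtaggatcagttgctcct
All 6 windows held CACCC, as did 37.4% of 32851 RefSeq windows of the same length. All but that of Hba-x held CCAAT, against 24.5% of windows. CACCC began 95 bases before the start in Hba-x and 111 bases before it in Hbb-y, both embryonic genes. A GATAA motif, the core of the site bound by GATA factors, was found in the Hba-x window and in 13.3% of all windows. These are matches of letters, not measured binding.

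Paralogs limit what the counts can tell apart. Hba-a1 and Hba-a2 had the same count in each of the 6 libraries, so the 7 symbols hold 6 distinct sets of counts. Their GENCODE transcripts were 99.8% identical over 538 aligned bases. Of all runs of 50 bases in the last 200 bases of the transcript, 66.9% for Hba-a1 were found in Hba-a2 and 56.3% for Hba-a2 in Hba-a1. Values for Hba-a1 and Hba-a2 are therefore given once, as 1 measurement that may come from either gene. The transcripts of Hbb-bt and Hbb-bs were 92.7% identical over 626 bases, but none of the runs of 50 bases in the last 200 bases was shared (0.0% each way). Over the whole transcript, 381 of the 654 runs of 50 bases of Hbb-bt were found in Hbb-bs. Reads that fell outside the last 200 bases could thus match both genes. The embryonic transcripts Hbb-y and Hbb-bh1 were 73.6% identical over 611 bases and shared none. The tables also list Hbb-b1, with the counts of Hbb-bs, and Hbb-b2, with the counts of Hbb-bt. Hbb-b1 and Hbb-b2 name the adult beta genes of another mouse haplotype.

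Total counts were 14476809 to 23887717 in KO libraries and 18352150 to 36213611 in WT libraries. The targeted gene Adgrl2 was read at 5.49, 1.67 and 2.78 CPM in KO replicates 1 to 3, against 10.9, 7.56 and 15.96 CPM in WT replicates 1 to 3 (CPM, counts scaled to the library size after TMM normalisation). This difference did not pass an adjusted p of 0.05 (edgeR quasi-likelihood test, adjusted p = 0.194). DESeq2 called the gene lower, as it did 2.87% of all genes, and limma-voom did not. Every KO value lay below every WT value, as for 9.39% of tested genes. Tags from a 3' end need not lie in the part of the gene changed by the knockout. The label whole embryo was set against 12 markers of the embryo proper, such as the neural gene Pax6 and the cardiac gene Tnnt2, whose summed level was 9.40 to 27.3 CPM in KO and 55.1 to 398 CPM in WT libraries. The 12 markers of the decidua, the maternal lining of the implantation site, summed to 5905 to 10598 CPM in KO and 19891 to 35443 CPM in WT libraries. The decidual sum was thus lower in KO libraries, while the median log2 fold change over the same 12 genes was 0.96. Prl8a2 alone held 1279 to 5335 CPM in KO and 14990 to 28750 CPM in WT libraries. Of the 12, 6 had all KO values above all WT values (12.1% of tested genes) and 3 had all below (9.39%). The decidual sum exceeded the embryo sum in all 6 libraries, which depends on the genes listed. KO replicates 2 and 3 stood apart from the other 4 in several lists given further on. The median log2 fold change of the embryo markers tested was -2.90, and -1.91 without WT replicate 3. It was -3.57 without KO replicate 1 and -2.68 with KO replicate 1 as the only KO library. Their median offset from the WT mean (log2) was -2.13, -3.01 and -2.92 in KO replicates 1 to 3, against -0.31, -1.52 and 1.59 in WT replicates 1 to 3. Fold changes of the globins, the embryonic share and the medians of most gene lists are given with and without the libraries that moved them.

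All 3 embryonic globins were low in KO replicates 2 and 3. Hbb-y was read at 364, 21.3 and 18.9 CPM in KO replicates 1 to 3, against 1193, 931 and 924 CPM in WT replicates 1 to 3. The WT libraries agreed within a factor of 1.29 for this gene, while the KO libraries spanned a factor of 19.3, with replicate 1 highest and below every WT value. Hba-x was read at 82.8, 5.40 and 2.21 CPM in KO replicates 1 to 3, against 230.2, 269.7 and 129 CPM in WT replicates 1 to 3. Here too every KO value lay below every WT value. Hbb-bh1 was read at 251, 17.0 and 13.04 CPM in KO replicates 1 to 3, against 670.0, 619.6 and 202.6 CPM in WT replicates 1 to 3. For this gene the groups overlapped, since KO replicate 1 exceeded WT replicate 3.

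None of the embryonic globins was at 0 in any library. Hba-x had 2112, 81 and 31 counts in KO replicates 1 to 3 and 6354, 4426 and 4944 counts in WT replicates 1 to 3. For the lowest value, in KO replicate 3, the exact 95% Poisson interval ran from 1.501 to 3.136 CPM, and such intervals cover counting error only. Relative to the WT mean, Hbb-y was 2.79-fold lower in KO replicate 1, 47.8-fold lower in replicate 2 and 53.8-fold lower in replicate 3. Hba-x was 2.53-fold, 38.8-fold and 94.9-fold lower in KO replicates 1, 2 and 3. Hbb-bh1 was 1.98-fold, 29.3-fold and 38.1-fold lower in these 3 libraries. In bulk RNA, fewer red cells and less globin RNA per cell cannot be told apart.

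**Figure D1:**
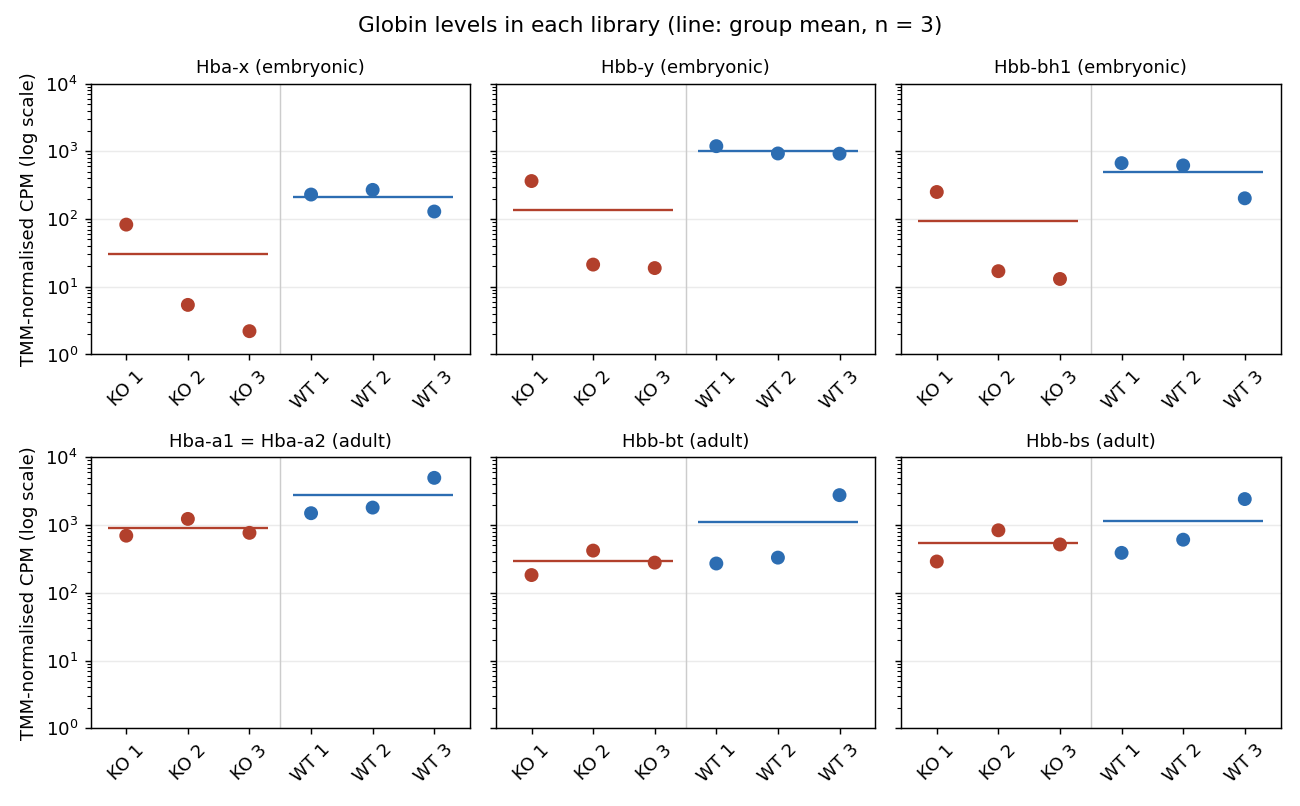
Level of each distinct globin count set in every library, as TMM-normalised CPM on a log axis, with KO libraries in red at the left of each panel and WT libraries in blue at the right; lines mark group means (n = 3). The embryonic globins in the top row are lowest in KO replicates 2 and 3, where Hbb-y stands at 21.3 and 18.9 CPM, while the adult globins in the bottom row are highest in WT replicate 3, where Hbb-bt stands at 2770 CPM.

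The adult-type globins did not follow that pattern. Hba-a1, read together with Hba-a2 and encoding the adult alpha chain, stood at 698, 1234 and 768 CPM in KO replicates 1 to 3, against 1499, 1814 and 4986 CPM in WT replicates 1 to 3. The KO values lay below all WT values, and KO replicates 2 and 3 were not below KO replicate 1. Hbb-bt, the beta-t chain of adult haemoglobin, stood at 183, 420.2 and 279 CPM in KO replicates 1 to 3, against 271, 331 and 2770 CPM in WT replicates 1 to 3. Hbb-bs, the beta-s chain, stood at 290.0, 838 and 518 CPM in KO replicates 1 to 3, against 389, 609 and 2424 CPM in WT replicates 1 to 3. For both beta genes the groups overlapped, and WT replicate 3 was far above the other 5 libraries. Relative to the WT mean, KO replicates 1, 2 and 3 were 3.96-fold, 2.24-fold and 3.60-fold lower for Hba-a1. They were 6.15-fold, 2.67-fold and 4.02-fold lower for Hbb-bt, and 3.93-fold, 1.36-fold and 2.20-fold lower for Hbb-bs. Among KO libraries, replicate 1 was therefore the lowest in adult globins and the highest in embryonic globins.

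The order of mean levels was the same in both groups, but it did not hold in every library. Hbb-y exceeded both Hbb-bs and Hbb-bt in KO replicate 1 and in WT replicates 1 and 2. A 3' tag kit reads a transcript near its end, so these CPM are not scaled by length. Hba-a1 with Hba-a2 averaged 899.9 ± 291 CPM in KO and 2766 ± 1929 CPM in WT libraries (SD, n = 3 each). Next came Hbb-bs, at 549 ± 276 CPM in KO and 1141 ± 1117 CPM in WT libraries, and Hbb-bt, at 294 ± 119 CPM in KO and 1124 ± 1426 CPM in WT libraries. Hbb-y averaged 135 ± 199 CPM in KO and 1016 ± 154 CPM in WT libraries. Hbb-bh1 averaged 93.7 ± 136 CPM in KO and 497 ± 257 CPM in WT libraries, and Hba-x averaged 30.1 ± 45.6 CPM in KO and 209.7 ± 72.5 CPM in WT libraries. Neighbouring means that differed by less than the SD of either gene were those of Hbb-y and Hbb-bh1 within KO, and those of Hbb-bs, Hbb-bt and Hbb-y within WT.

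Tested one by one over the whole table, none of the globins passed. Their log2 fold changes of KO over WT were all negative, against 53.4% of all 13848 genes tested. The count past an adjusted p of 0.05 was 0 of 7 lower and 0 of 7 higher (edgeR quasi-likelihood test, Benjamini-Hochberg), against a background of 0.0505% of tested genes lower and 0% higher. At an unadjusted p under 0.05, 3 of the 7 symbols were lower, which are the 2 distinct sets of Hbb-y and Hba-a1 with Hba-a2, against 6.86% of tested genes lower and 8.68% higher. DESeq2 called 2 of 7 lower, Hba-a1 and Hba-a2 with their shared counts (adjusted p = 0.00822), against 2.87% of the 13462 genes to which it gave an adjusted p (3.49% higher). limma-voom called 0 of 7, against 0.0505% of genes lower. All KO values lay below all WT values for 4 of the 7 symbols, or 3 of the 6 distinct sets, against 9.39% of tested genes, and 12.1% of tested genes had all KO values above all WT values.

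Among the embryonic genes, the log2 fold change was -2.91 ± 1.13 for Hbb-y (SE, edgeR adjusted p = 0.288), -2.79 ± 1.22 for Hba-x (adjusted p = 0.332) and -2.41 ± 1.15 for Hbb-bh1 (adjusted p = 0.371). Values at or below these were found in 2.25% of tested genes for Hbb-y, 2.51% for Hba-x and 3.55% for Hbb-bh1. Among the adult genes it was -1.62 ± 0.49 for Hba-a1 with Hba-a2 (adjusted p = 0.214), -1.93 ± 0.90 for Hbb-bt (adjusted p = 0.360) and -1.06 ± 0.71 for Hbb-bs (adjusted p = 0.515). The standard error of the embryonic genes was thus larger than that of the adult genes, although their WT libraries lay closer together. limma-voom, which fits log values, gave -4.15 for Hbb-y, -3.91 for Hba-x and -3.37 for Hbb-bh1, and -1.16 for Hbb-bt, none of them called. With Hbb-bt and Hbb-bs summed, the adult beta-chain fold change was -1.43 (edgeR adjusted p = 0.430).

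Single libraries decided these values. Without KO replicate 1, all 3 embryonic globins were called lower. Their log2 fold changes were then -5.66 ± 0.28 for Hbb-y (edgeR adjusted p = 0.00329), -5.78 ± 0.58 for Hba-x (adjusted p = 0.0132) and -5.05 ± 0.64 for Hbb-bh1 (adjusted p = 0.0193). In that comparison 3.27% of 14249 genes were called lower. The adjusted p over all settings ranged from 0.00329 to 0.9995 for Hbb-y, from 0.0132 to 0.9995 for Hba-x and from 0.0193 to 0.9995 for Hbb-bh1. With KO replicate 1 as the only KO library, the fold changes were -1.46 for Hbb-y, -1.32 for Hba-x and -0.97 for Hbb-bh1, none of them called (edgeR adjusted p = 0.9995 each). It was then -2.58 for Hbb-bt and -1.94 for Hbb-bs, with the same adjusted p. Without WT replicate 3, the adult beta genes lay near 0, with -0.045 for Hbb-bt (adjusted p = 0.9698) and 0.12 for Hbb-bs (adjusted p = 0.933). Hba-a1 with Hba-a2 then stood at -0.89 (adjusted p = 0.354), while the embryonic genes stayed between -3.02 and -2.76. Whether the embryonic and adult classes differ in their response was not tested.

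**Figure D2:**
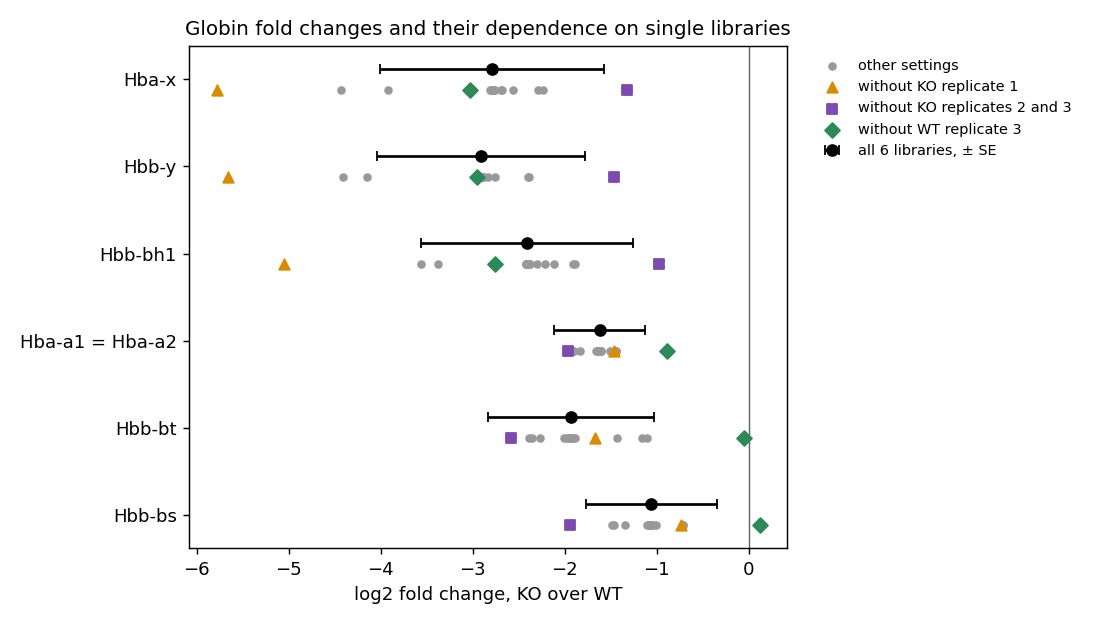
Log2 fold change of KO over WT for each distinct globin count set, with all 6 libraries (black, bars are SE) and under the other settings (coloured or grey points); 0 marks no difference. The embryonic globins sit below -5 without KO replicate 1 and nearer to 0 without KO replicates 2 and 3, and Hbb-bt and Hbb-bs reach 0 without WT replicate 3.

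The make-up of the globin counts, which needs no scaling between libraries, set KO replicates 2 and 3 apart. With each identical set counted once, embryonic genes held 37.4%, 1.72% and 2.13% of globin counts in KO replicates 1 to 3, against 49.2%, 39.8% and 10.98% in WT replicates 1 to 3. Exact 95% binomial intervals were 36.9 to 37.8% for KO replicate 1, 1.59 to 1.86% for KO replicate 2 and 1.95 to 2.33% for KO replicate 3. They were 48.95 to 49.5% for WT replicate 1, 39.4 to 40.1% for WT replicate 2 and 10.9 to 11.1% for WT replicate 3. KO replicate 1 thus lay among the WT libraries, near WT replicate 2. Over the 7 symbols as listed, where the alpha counts enter under both names, the share averaged 9.93 ± 14.95% in KO and 24.2 ± 14.9% in WT libraries (SD, n = 3 each). The difference of -14.2 percentage points was smaller than the SD of either group. It was -22.9 points without KO replicate 1, -22.5 without WT replicate 3 and -8.14 without WT replicate 1, and 3.02 points with KO replicate 1 as the only KO library.

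Low shares went with different levels in different libraries. In WT replicate 3 the embryonic genes summed to 1255 CPM, beside 2094 and 1820 CPM in WT replicates 1 and 2, and the adult sets to 10180 CPM, beside 2158 and 2754 CPM. Its low embryonic share went with a high adult level. In KO replicates 2 and 3 the embryonic genes summed to 43.7 and 34.1 CPM and the adult sets to 2492 and 1565 CPM, so that their low share went with a low embryonic level. KO replicate 1 had 698 CPM of embryonic and 1171 CPM of adult sets, the lowest adult sum of the 6 libraries.

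**Figure D3:**
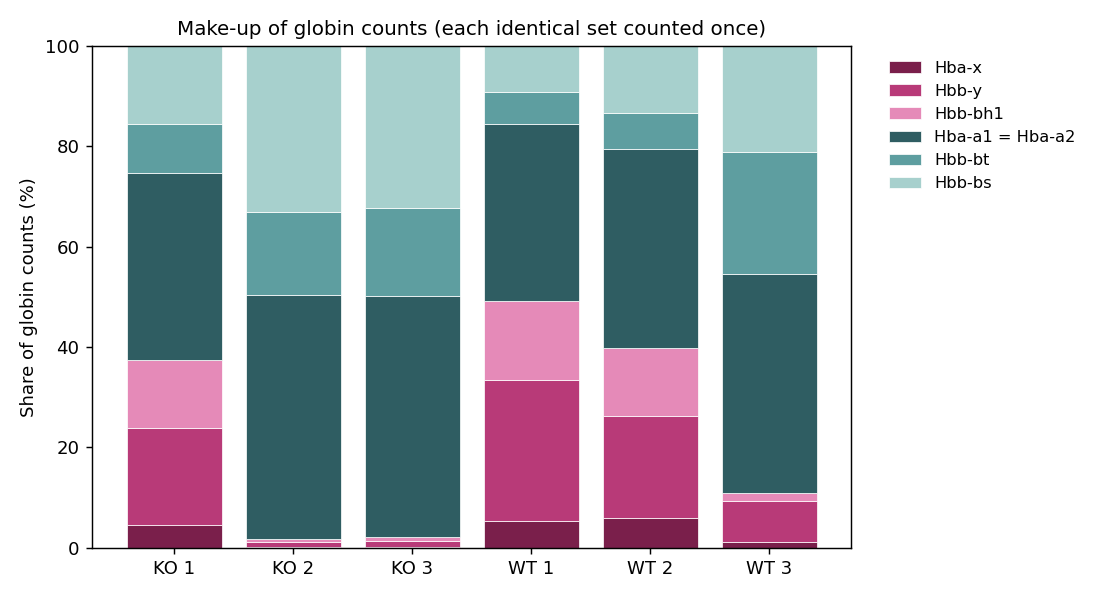
Share of each globin in the globin counts of every library, in percent, with embryonic genes in pink tones and adult genes in teal tones and each identical count set counted once; KO libraries stand at the left and WT libraries at the right. Embryonic genes take 1.72% and 2.13% in KO replicates 2 and 3, 10.98% in WT replicate 3 and 37.4 to 49.2% in the remaining 3 libraries.

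Within the classes, the proportions between chains varied less. Hbb-bh1 made up 40.8%, 44.4% and 40.9% of the counts of Hbb-bh1 and Hbb-y in KO replicates 1 to 3, against 35.95%, 39.97% and 18.0% in WT replicates 1 to 3. The exact 95% interval of KO replicate 2, which had 574 such counts, was 40.3 to 48.6%, and that of WT replicate 3 was 17.6 to 18.4%. WT replicate 3 was therefore the library with the most Hbb-y for its Hbb-bh1. It was also the library with the lowest share of Hba-x among alpha-like counts within WT, at 2.53%, beside 13.3% and 12.9% in WT replicates 1 and 2. In KO replicates 1 to 3 this share was 10.6%, 0.436% and 0.287%. It sets an embryonic chain against an adult one, so it is not a proportion within a class, and it varied widely. Hbb-bt made up 38.7%, 33.4% and 35.0% of the counts of Hbb-bt and Hbb-bs in KO replicates 1 to 3, against 41.05%, 35.2% and 53.3% in WT replicates 1 to 3. Alpha-like chains took 41.8 to 48.9% of globin counts in KO and 40.7 to 45.6% in WT libraries. This range was narrow beside that of the embryonic share.

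Other members of the globin family were scarce. Of 11 further family symbols looked for, 9 were in the tables and 5 passed the filter, among them Hbb-b1 and Hbb-b2 with the counts already described. None of the 5 passed an adjusted p of 0.05 (edgeR), 1 was lower at an unadjusted p under 0.05, and DESeq2 called 1 lower and limma-voom 0, against 6.86% of all tested genes at that unadjusted p and 2.87% of all genes by DESeq2. The median log2 fold change of the 5 was -1.93, and -0.84 without WT replicate 3. Mb, myoglobin of heart and skeletal muscle, stood at 0.235, 0 and 0 CPM in KO replicates 1 to 3, against 2.06, 0.914 and 3.53 CPM in WT replicates 1 to 3 (adjusted p = 0.185). Hbq1b, a theta-like gene of the alpha cluster, stood at 0.706, 0 and 0 CPM in KO replicates 1 to 3, against 1.16, 1.22 and 2.61 CPM in WT replicates 1 to 3 (adjusted p = 0.380). Both were thus listed at 0 in KO replicates 2 and 3. Cygb, cytoglobin of fibroblasts, stood at 3.83 ± 0.842 CPM in KO and 6.54 ± 1.80 CPM in WT libraries (SD, n = 3 each, adjusted p = 0.344). Hbb-bh2 of the beta cluster and Ngb, neuroglobin, had 0 counts in all 6 libraries.

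Of 16 regulators of globin genes, all tested, 0 passed in either direction (edgeR), with 12 negative fold changes and a median of -0.76, against -0.04 over all genes tested. At an unadjusted p under 0.05, 4 were lower and 1 higher, against 6.86% lower and 8.68% higher over all tested genes. DESeq2 called 1 of the 16 lower, against 2.87% of all genes, and limma-voom 0. The median was -0.35 without WT replicate 3, -0.69 without KO replicate 1 and -0.88 with KO replicate 1 as the only KO library. Without KO replicate 1, 2 of the 16 were called lower (edgeR), against 3.27% of all genes tested there. The median over all 6 libraries was the same with Gfi1b, at 0 in all KO libraries, set to a bound of 3 counts over the group. Gfi1b, an erythroid repressor, stood at 0 CPM in KO replicates 1 to 3, against 1.23, 1.58 and 5.70 CPM in WT replicates 1 to 3 (adjusted p = 0.166). Zfpm1, the GATA cofactor FOG1, averaged 5.95 ± 0.694 CPM in KO and 11.5 ± 3.46 CPM in WT libraries (SD, n = 3 each, adjusted p = 0.229). Sox6, a repressor of Hbb-y in definitive red cells, stood at 2.35, 3.60 and 2.14 CPM in KO replicates 1 to 3, against 11.1, 1.10 and 71.0 CPM in WT replicates 1 to 3 (adjusted p = 0.270). These 3 had the smallest p of the list, and Sox6 was highest where the adult globins were highest. Klf1, the factor of the CACCC motif, stood at 2.55, 0.333 and 0.0713 CPM in KO replicates 1 to 3, against 3.73, 4.26 and 15.05 CPM in WT replicates 1 to 3 (edgeR adjusted p = 0.285). Gata1, the main GATA factor of red cells, stood at 2.59, 0 and 0 CPM in KO replicates 1 to 3, against 2.28, 2.07 and 3.95 CPM in WT replicates 1 to 3 (adjusted p = 0.628). Bcl11a, a repressor of embryonic beta-like genes in definitive red cells, stood at 0.0392, 2.67 and 0.214 CPM in KO replicates 1 to 3, against 2.14, 0.670 and 59.3 CPM in WT replicates 1 to 3 (adjusted p = 0.330). Klf1 and Gata1 were thus nearly absent from the libraries lowest in embryonic globins, and Bcl11a, like Sox6, was highest in WT replicate 3. The embryo markers also had their highest median offset in that library, at 1.59, against -0.31 and -1.52 in WT replicates 1 and 2. Whether the Sox6 and Bcl11a transcripts came from red cells was not tested. Going the other way, the 4 members with positive log2 fold changes were Klf2 (0.71), Zbtb7a (0.60), Myb (0.54) and Nr2c2 (0.08). Klf2, the 1 higher at an unadjusted p under 0.05, had an edgeR adjusted p of 0.273. It stood at 24.5, 39.0 and 35.0 CPM in KO replicates 1 to 3, against 17.5, 26.1 and 16.5 CPM in WT replicates 1 to 3.

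Haem synthesis and iron genes had a narrower spread between libraries. Of 14 tested, 0 passed (edgeR), 12 had negative fold changes and the median was -0.64. At an unadjusted p under 0.05, 4 were lower, and DESeq2 called 4 lower and limma-voom 0, against 6.86% of all tested genes at that unadjusted p and 2.87% of all genes by DESeq2. The median stayed between -0.68 and -0.56 without KO replicate 1, without KO replicates 2 and 3 and without WT replicate 3. Without KO replicate 1, 3 of the 14 were called lower (edgeR), against 3.27% of all genes tested there. Alas2, the erythroid aminolevulinate synthase, stood at 36.3, 31.7 and 20.96 CPM in KO replicates 1 to 3, against 87.5, 73.0 and 121 CPM in WT replicates 1 to 3 (log2 fold change -1.66, adjusted p = 0.164). Unlike the embryonic globins, its 3 KO values stood close together. Cpox, coproporphyrinogen oxidase, averaged 32.7 ± 5.23 CPM in KO and 66.2 ± 19.8 CPM in WT libraries (adjusted p = 0.173). Slc25a37, mitoferrin, averaged 39.2 ± 24.4 CPM in KO and 139 ± 60.2 CPM in WT libraries (SD, n = 3 each, adjusted p = 0.184). Its KO values stood apart, at 67.2, 27.3 and 22.95 CPM in replicates 1 to 3. So did those of Tfrc, at 47.96, 10.8 and 10.05 CPM, against 57.9, 54.3 and 47.7 CPM in WT replicates 1 to 3.

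Red cell proteins, like the embryonic globins, had their lowest medians in KO replicates 2 and 3. Of 18 listed, 15 were tested, 0 passed (edgeR), 14 had negative fold changes and the median was -2.15. At an unadjusted p under 0.05, 7 were lower, and DESeq2 called 3 lower and limma-voom 0, against 6.86% of all tested genes at that unadjusted p and 2.87% of all genes by DESeq2. The median was -3.67 without KO replicate 1, where 5 of 15 were called lower (edgeR) against 3.27% of all genes tested there. It was -1.53 without WT replicate 3 and -1.15 with KO replicate 1 as the only KO library, with 0 called. Slc4a1, the anion exchanger band 3 of the red cell membrane, stood at 5.10, 0.600 and 0.570 CPM in KO replicates 1 to 3, against 16.8, 14.8 and 62.6 CPM in WT replicates 1 to 3 (adjusted p = 0.183). Rhd, a Rhesus membrane protein, stood at 1.02, 0.0667 and 0 CPM in KO replicates 1 to 3, against 2.86, 1.83 and 20.4 CPM in WT replicates 1 to 3 (adjusted p = 0.235). Rhag, its partner, stood at 0.588, 0.333 and 0.0713 CPM in KO replicates 1 to 3, against 1.23, 0.975 and 5.83 CPM in WT replicates 1 to 3 (adjusted p = 0.246). Per library, the median of the list lay at -0.87, -3.35 and -4.69 from the WT mean (log2) in KO replicates 1 to 3, against -0.47, -0.76 and 1.25 in WT replicates 1 to 3. The same median for the embryonic globins lay at -1.27, -5.20 and -5.74 in KO replicates 1 to 3, against 0.24, 0.43 and -0.63 in WT replicates 1 to 3. Within WT the lists thus went different ways, since WT replicate 3 was highest in red cell proteins and lowest in embryonic globins. Car1, carbonic anhydrase 1 of definitive red cells, was at 0 in 5 libraries and at 0.418 CPM in WT replicate 3, the library richest in adult globins.

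Markers of some other tissues were also low where the embryonic globins were low, and those of others were not. The 11 yolk sac endoderm markers, all tested, summed to 199.96, 25.5 and 38.3 CPM in KO replicates 1 to 3, against 427, 565 and 698 CPM in WT replicates 1 to 3. Of the 11, 4 were at 0 in KO replicate 2 and 6 in KO replicate 3, against 0 in each of the other libraries. The 14 trophoblast markers summed to 5506, 90.7 and 266 CPM in KO replicates 1 to 3, against 8173, 9025 and 2304 CPM in WT replicates 1 to 3. The libraries lowest in embryonic globins were thus also the lowest in yolk sac and trophoblast transcripts. The median log2 fold change of the yolk sac list was -2.51, and -6.58 without KO replicate 1 and -1.02 with KO replicate 1 as the only KO library. For the 11 trophoblast genes tested it was -1.66, and -5.53 without KO replicate 1 and -0.06 with KO replicate 1 as the only KO library. The 8 endothelial markers, all tested, had positive fold changes with a median of 0.91, and 0 passed (edgeR). At an unadjusted p under 0.05, 6 of the 8 were higher, against 8.68% of all tested genes, and DESeq2 called 3 higher, against 3.49%, and limma-voom 0. Their median offset from the WT mean was 0.78, 0.91 and 1.09 in KO replicates 1 to 3, against -0.18, 0.53 and -0.31 in WT replicates 1 to 3. The decidual median, 0.96, was 0.33 with KO replicate 1 as the only KO library. The list of 11 leukocyte genes, which blood of the mother also carries, summed to 2192 to 3911 CPM in KO and 835 to 1453 CPM in WT libraries. Of these 11, 4, 3 and 4 were at 0 in KO replicates 1 to 3, against 5, 6 and 2 in WT replicates 1 to 3. That sum came mostly from S100a8, at 3102 ± 872 CPM in KO and 1033 ± 336 CPM in WT libraries (SD, n = 3 each). Of the 4 leukocyte genes tested, 2 had positive fold changes, S100a8 and Ptprc. The other 2 had negative ones, the neutrophil gene S100a9 (log2 fold change -1.68) and Ltf (-1.28), so the sum does not stand for the list. Ptprc stood at 48.6, 65.2 and 49.4 CPM in KO replicates 1 to 3, against 27.5, 26.0 and 15.05 CPM in WT replicates 1 to 3. Its log2 fold change was 1.25 (edgeR adjusted p = 0.166). The defining B cell gene Cd79a was at 0 in all 6 libraries and the T cell gene Cd3e at no more than 0.333 CPM. Cd79b, Cd3g and Ms4a1 were read at no more than 0.600 CPM in any library. The part of these tissues in the globin values was not tested.

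**Figure D4:**
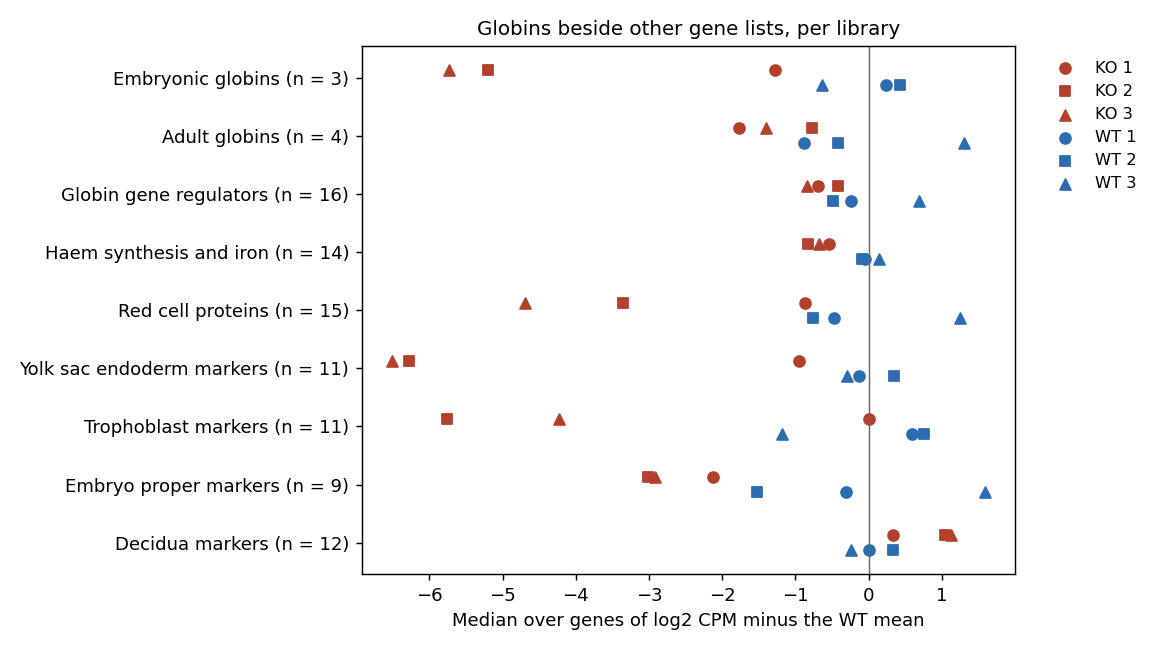
For each gene list (n = genes tested), the median over its genes of log2 CPM minus the WT mean, in every library; red symbols are KO libraries, drawn above, and blue symbols WT libraries, drawn below, with a symbol shape per replicate. The embryonic globins, red cell proteins, yolk sac and trophoblast markers lie far to the left in KO replicates 2 and 3, while the adult globins are highest in WT replicate 3, at 1.304.

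The genes most like a globin across the 6 libraries also differed between the classes. Likeness was the root mean square difference between log2 CPM profiles, each centred on its own mean (0.05 CPM added), over 9508 candidate genes averaging at least 5 CPM. For Hbb-y the 5 closest were Peg3os (0.41), Igf2bp3 (0.42), Afp (0.43), H19 (0.52) and Bex1 (0.55), where the median candidate lay at 2.58. Igf2bp3 encodes an RNA-binding protein, Afp encodes alpha-fetoprotein, made by the yolk sac at this stage, and H19 is an imprinted non-coding RNA abundant in embryonic tissues. Afp is also 1 of the 11 yolk sac markers. Afp stood at 76.4, 3.53 and 4.49 CPM in KO replicates 1 to 3, against 173, 212 and 342 CPM in WT replicates 1 to 3. H19 stood at 2659, 79.5 and 107 CPM in KO replicates 1 to 3, against 3180, 4118 and 2623 CPM in WT replicates 1 to 3. Hba-x lay at 0.46 and Hbb-bh1 at 0.62 from Hbb-y, and Hba-a1 at 2.19.

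For Hba-a1 the 5 closest were S100a9 (0.14), Pgm2l1 (0.18), Rtn2 (0.23), Serf1 (0.33) and Rbms3 (0.35), where the median candidate lay at 1.01. S100a9, a calcium-binding protein abundant in neutrophils and a member of the leukocyte list, stood at 2.04, 4.27 and 2.00 CPM in KO replicates 1 to 3, against 5.29, 5.97 and 15.2 CPM in WT replicates 1 to 3. Hbb-bs lay at 0.50 and Hbb-bt at 0.57 from Hba-a1, nearer than the median candidate. The 5 genes were picked as the closest of 9508, so their smaller distances do not set the adult beta chains apart. Such distances rest on 6 libraries, of which WT replicate 3 for Hba-a1 and KO replicates 2 and 3 for Hbb-y lay furthest from the rest.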

How the data were processed

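Per the labels' protocols, Trizol RNA went into Lexogen QuantSeq libraries, which tag transcript 3' ends. The authors deposited raw counts per gene symbol, 1 table per sample. For some genes all counts were multiples of 1 number, such as 6 for Sox6, 3 for Tnnt2 and 2 for Alas2. The reason is not given, and the CPM and sums of such genes may be inflated. For each of the 7 globins this number was 1. With common divisors removed, the log2 fold change of Hbb-y was -2.88. The submitters' processing notes name Bowtie2, edgeR and the build mm10. The sources used here do not give their roles or versions, the annotation, or how strand and reads with several matches were counted. No batch is labelled, and replicates are separate samples only by their labels, so p-values may in part measure technical spread.

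Genes were kept with filterByExpr (minimum count 10) and scaled by TMM. KO and WT were compared by the quasi-likelihood test of edgeR 4.0.16 without covariates in R 4.3.3, with Benjamini-Hochberg adjustment over all tested genes and a threshold of 0.05. The standard error is the fold change over the square root of the F statistic. Total counts per library set the counting error only. The standard error also rests on the spread between libraries, as for Hbb-y, at 1.13 with all 6 and 0.28 without KO replicate 1. DESeq2 1.42.0, limma-voom 3.58.1, other scalings and filters and left-out libraries were alternatives. Scripts were tested on simulated counts. Figures used matplotlib 3.10.9. Members and gene lists were chosen with earlier results of these data known. All 7 members were named, as were the 5 genes closest to Hbb-y and to Hba-a1 and, for the regulator, haem, red cell and other globin lists, the 3 genes with the smallest p. Among other globins Hbb-b2 came before Hbq1b but carries the counts of Hbb-bt, so Hbq1b was described in its place. Pax6, Tnnt2, Klf1, Gata1, Bcl11a, Car1, Cd79a, Cd3e, S100a8, Hbb-bh2 and Ngb were named after their values were seen. So were Klf2, Zbtb7a, Myb, Nr2c2, Tfrc, Ptprc, Cd79b, Cd3g, Ms4a1, Ltf and Prl8a2.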

Additional observations from a re-analysis of the deposited data

How the results depend on the processing

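Across 17 to 19 alternatives per gene, the direction of the fold change held for Hba-x, Hbb-y, Hbb-bh1, Hba-a1, Hba-a2 and Hbb-bt. Hbb-bs ranged from -1.48 to 0.12 when single libraries were left out, and turned to 0.12 without WT replicate 3. The number of globin genes lower in KO, 0 of 7, became 2 with DESeq2, lay between 0 and 3 when single libraries were left out (3 without KO replicate 1), and was 0 under every other alternative. The number higher stayed at 0. The embryonic share difference of -14.2 points ranged from -22.9 to -8.14 when single libraries were left out and turned to 3.02 with KO replicate 1 alone. With 1 symbol kept per identical set of counts, an alternative added after the data were seen, it was -19.6 points. DESeq2 gave no adjusted p for Hbb-bt. Between libraries of the same replicate number, deviations from the group mean correlated little (r of 0.121, -0.0167 and 0.071). Between libraries of different numbers r ranged from -0.0999 to 0.0578. With 3 libraries per group, whether replicate numbers pair the libraries cannot be settled. With the replicate block the counts were 0 lower and 0 higher, and the fold change was -4.40 for Hbb-y, -4.43 for Hba-x and -3.57 for Hbb-bh1. List medians without single libraries were also added after the data were seen, and none of them changed sign. KO replicate 1 alone assumes that it varies like the WT libraries. Whole tables gave 466 genes lower without KO replicate 1, 11 without WT replicate 2 and 7 with all 6 libraries, against 0 without KO replicate 2, KO replicate 3 or WT replicate 1.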
